A study of Homo sapiens with 48 samples.

Results

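The amino acids that feed protein synthesis are made by the cell, imported, and loaded onto tRNA, and 44 genes of these tasks were followed through depletion and replacement of the RNA helicase UPF1. The genes were chosen by name, with earlier results of these data known, so counts of them are a description. They comprised 13 enzymes of amino acid synthesis and one-carbon metabolism, 4 genes of stress output, 9 amino acid transporters and 18 cytosolic aminoacyl-tRNA synthetases. They were 44 of the 57820 genes in the table, and all 44 were among the 19129 genes with enough counts to be tested.

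RNA was sequenced from 48 libraries of Flp-In 293 T-REx cells, human cells of embryonic kidney origin built to take up a transgene at a chosen genomic locus. Of the 8 stable lines, 6 expressed CLIP-UPF1 carrying K498A, DE636AA, R843C, A546H, GA-KH or E797R, WT expressed CLIP-UPF1 without such a change, and CLIP expressed the CLIP tag alone. CLIP is a protein tag that can be labelled chemically. Each line received siUPF1, an siRNA against endogenous UPF1, or siNT, a non-targeting siRNA, in 3 libraries each, which the series' design text calls biological replicates. All groups thus shared the parental line, 40 nM of an siRNA and 72 h to harvest, and the siNT cells kept their endogenous UPF1 in every line. The promoter of the transgene and whether a line was a single clone are not given in the sources used here. The study's title concerns the ATPase of UPF1 and how well cells carry out nonsense-mediated mRNA decay (NMD).

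UPF1 is the central helicase of NMD, which degrades mRNAs that stop translation too early and many normal mRNAs as well. Genes of these tasks include those known as the metabolic arm of ATF4, a transcription factor. The translation of ATF4 itself increases when amino acids run short and kinases phosphorylate the initiation factor eIF2. Whether each gene described here is a target of ATF4 was not tested. ATF4 binds C/EBP-ATF response elements near the start sites of genes for amino acid synthesis, import and tRNA charging. The mRNA of ATF4 is itself a known NMD substrate in mammalian cells.

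Library totals ran from 21333958 to 47100154 expected counts (median 32337381), of which the 44 genes together made 0.687% to 0.881%. The table counts endogenous and transgenic UPF1 together. UPF1 had 4328, 4348 and 5857 CPM (counts scaled to a common library total) in WT siUPF1 libraries, against 5188, 5033 and 5639 CPM in WT siNT libraries. In CLIP it had 18.2, 36.8 and 17.7 CPM with siUPF1, against 105, 106 and 113 CPM with siNT. In the mutant lines it lay between 3695 CPM (R843C siUPF1) and 8235 CPM (DE636AA siUPF1). DE636AA had 6340, 7078 and 8235 CPM with siUPF1, against 4902, 6238 and 5703 CPM with siNT. Every line with a UPF1 transgene was thus far above the CLIP siNT level, and depletion of endogenous UPF1 cannot be read from these counts there. The second CLIP siUPF1 library stood apart, with more UPF1 left than the other CLIP siUPF1 libraries and with 0.631% of counts from mitochondrially encoded genes, the lowest share of the 48 libraries (median 2.33%). Most counts that involve CLIP, and many of the values that library moved, are therefore also given without it. The third library of each group had the highest mean log2 CPM of the synthesis genes in 16 of the 16 groups, of the transporters in 15, of the stress outputs in 14 and of the synthetases in 11, and the labels do not say what the replicate number stands for. The embryonic kidney line markers PAX2, LHX1, CDH2 and KRT18 were above 1 CPM in all 48 libraries and NEFM in 45. Of 9 markers of other cell types, DCN, PTPRC, HBB, CDH5 and ALB were above 1 CPM in 0 libraries, while COL1A1, COL3A1, CD68 and EPCAM were above it in all 48.

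The promoters were searched for the core of the C/EBP-ATF response element, TGATGNAA, on both strands of the windows from 250 bases before to 50 bases after RefSeq gene starts (GRCh38.p14). A promoter was at hand for 35 of the 44 genes, and 15 of the 35 (42.9%) had the core in a window, against 1217 of 27305 genes (4.46%) in the whole table. By window the shares were 17 of 52 (32.7%) and 1270 of 35116 (3.62%). It lay in windows of 2 of 9 synthesis genes, 1 of 4 stress outputs, 5 of 8 transporters and 7 of 14 synthetases. A match is a description of the letters and does not show that a factor binds. The core and up to 11 bases on either side are printed for 9 genes, in the direction of the core and with the core in capitals, because genes that hold it turned out to lie on both sides of zero in the responses below.
SLC1A4, chr2:64989381-64989410, minus strand: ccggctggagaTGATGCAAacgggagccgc
SLC3A2, chr11:62881725-62881748, minus strand: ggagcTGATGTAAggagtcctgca
SLC7A1, chr13:29595663-29595692, minus strand: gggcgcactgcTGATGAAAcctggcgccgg
MARS, chr12:57488053-57488082, minus strand: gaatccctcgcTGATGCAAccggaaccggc
CARS, chr11:3057407-3057436, plus strand: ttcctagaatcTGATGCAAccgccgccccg
CHAC1, chr15:40953251-40953280, minus strand: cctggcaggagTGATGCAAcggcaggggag
NARS, chr18:57621804-57621833, minus strand: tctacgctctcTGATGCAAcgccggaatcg
IARS, chr9:92293692-92293721, plus strand: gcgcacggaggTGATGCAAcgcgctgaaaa
ASNS, chr7:97872458-97872487, minus strand: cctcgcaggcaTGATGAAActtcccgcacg

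When UPF1 was depleted without replacement, most transporters and stress outputs rose and the synthetases went both ways. In CLIP, siUPF1 against siNT, 23 of the 44 genes rose and 8 fell at an adjusted p under 0.05 (edgeR's quasi-likelihood test, Benjamini-Hochberg over all genes tested), where 25.1% of all genes tested rose and 22.3% fell (47.4% in either direction). Their median log2 fold change was 0.33, against -0.01 over all genes tested. Of the 9 transporters 7 rose and 0 fell (median 0.71), of the 4 stress outputs 3 rose and 0 fell (1.17), and of the 13 synthesis genes 7 rose and 1 fell (0.27). Of the 18 synthetases 6 rose and 7 fell (median -0.09). Without the second CLIP siUPF1 library 24 genes rose and 8 fell, with 2 calls lost and 3 gained, while 40.5% of all genes tested were called. Without it 8 transporters, 2 stress outputs and 8 synthesis genes rose, and the synthetases kept their counts of 6 and 7. Among the genes with large changes, STC2 then rose by 1.82, GPT2 by 1.65, SLC7A5 by 1.53, SHMT2 by 1.14 and SLC3A2 by 0.61, while NARS fell by 0.82 and PSAT1 by 0.75. Fitted on their own, the 6 CLIP libraries gave 15 genes higher and 4 lower. The shares of all genes given above are not from that fit. These are shares of the RNA of a whole culture, so a change in every cell and a change in part of the cells cannot be told apart, nor can a change in synthesis be told from one in decay.

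**Figure D1:**
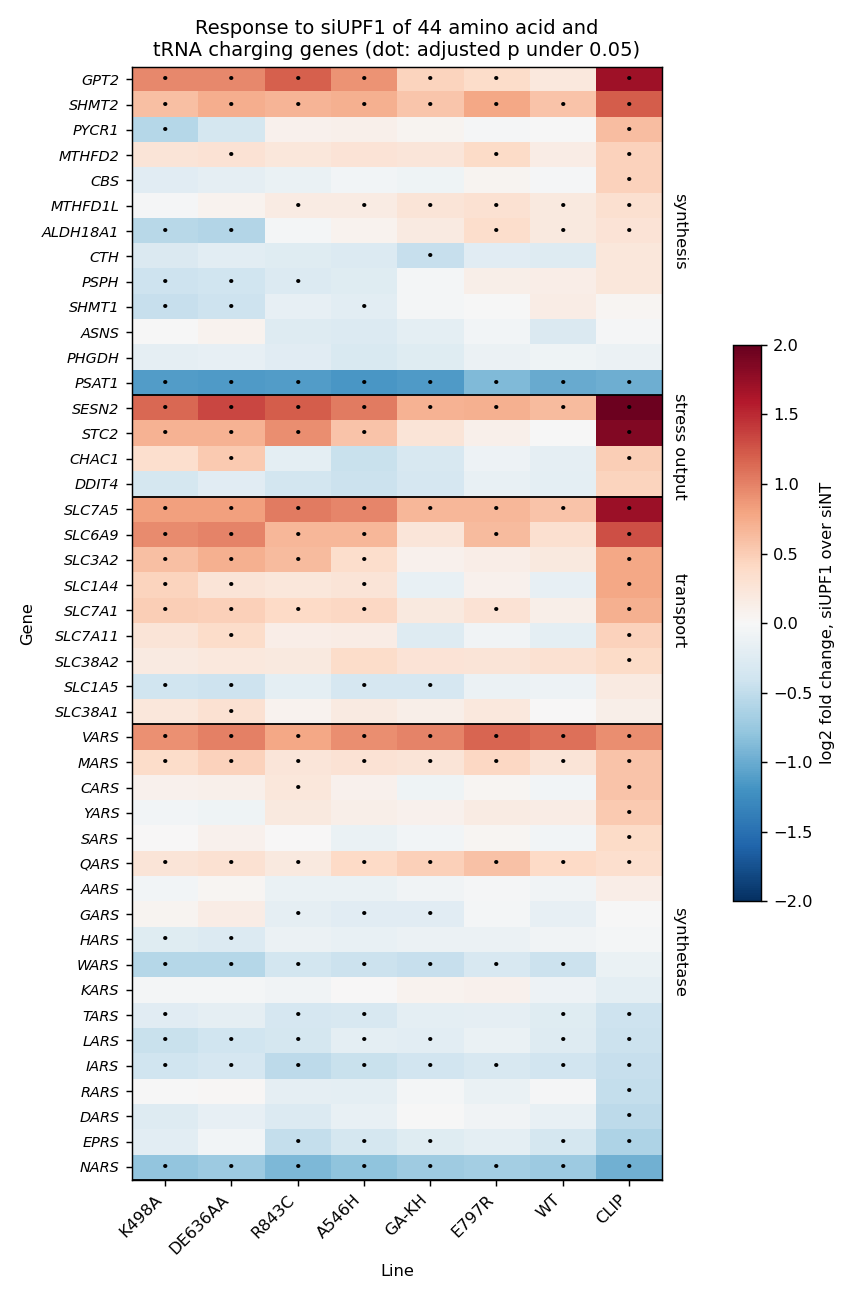
Log2 fold change of siUPF1 over siNT for the 44 genes (rows, ordered within each subgroup by the response in CLIP) in the 8 lines (columns, with the 6 mutant lines left of WT and CLIP). Red is higher with siUPF1, blue is lower, and a dot marks an adjusted p under 0.05. SESN2 and STC2 are the darkest red cells, in CLIP, and PSAT1 and NARS are blue in every column.

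The 2 largest responses in CLIP were those of stress outputs. SESN2, a leucine-binding inhibitor of the growth kinase complex mTORC1, had 122, 198 and 140.1 CPM in CLIP siUPF1 libraries, against 38.2, 36.7 and 43.01 CPM in CLIP siNT libraries. It rose by 1.96 (SE 0.13, adjusted p = 2.56e-15) on the log2 scale. Without the second library it rose by 1.73. Every CLIP siUPF1 library lay above every CLIP siNT library. STC2, a secreted glycoprotein of the stanniocalcin family, had 415, 482 and 515 CPM with siUPF1 in CLIP, against 116, 131 and 145 CPM with siNT. It rose by 1.85 (SE 0.14, adjusted p = 4.47e-14), and the groups did not overlap. CHAC1, an enzyme that breaks down glutathione, was low, with 5.27, 6.90 and 7.07 CPM in CLIP siUPF1 libraries, against 4.51, 4.48 and 4.71 CPM in CLIP siNT libraries. Its rise of 0.49 (SE 0.18, adjusted p = 0.0224) was not called without the second CLIP siUPF1 library (adjusted p = 0.0809) or in the 6 CLIP libraries alone (adjusted p = 0.0848). DDIT4, another inhibitor of mTORC1, had 137, 159 and 185 CPM with siUPF1 in CLIP and 103, 109 and 142 CPM with siNT. These groups overlapped, and DDIT4 was called in none of the 8 lines, with changes between -0.42 and 0.44.

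The same genes behaved unlike each other in the lines with a UPF1 transgene. SESN2 rose in all 8 lines, with WT siUPF1 libraries at 63.7, 61.2 and 74.01 CPM, against 41.3, 40.8 and 45.6 CPM in WT siNT libraries, a change of 0.64 (SE 0.13, adjusted p = 0.000148). The responses of the other lines lay between those of WT and CLIP for SESN2, at 0.69 in GA-KH, 0.71 in E797R, 1.05 in A546H, 1.16 in K498A, 1.21 in R843C and 1.33 in DE636AA, each with an SE of 0.13. Neighbours in this order lay within about an SE of each other, except A546H above E797R and CLIP above DE636AA. STC2 rose in K498A, DE636AA, R843C, A546H and CLIP and was called in none of the other 3 lines. WT siUPF1 libraries had 142, 136 and 182 CPM of STC2, against 145, 154 and 165 CPM in WT siNT libraries. R843C siUPF1 libraries had 308, 325 and 394 CPM, against 166, 178 and 193 CPM in R843C siNT libraries, a rise of 0.93 (SE 0.13, adjusted p = 5.42e-07). In WT the siUPF1 and siNT libraries overlapped, and in R843C they did not. CHAC1 was called in DE636AA as well as in CLIP, at 0.52 (SE 0.18, adjusted p = 0.0218).

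**Figure D2:**
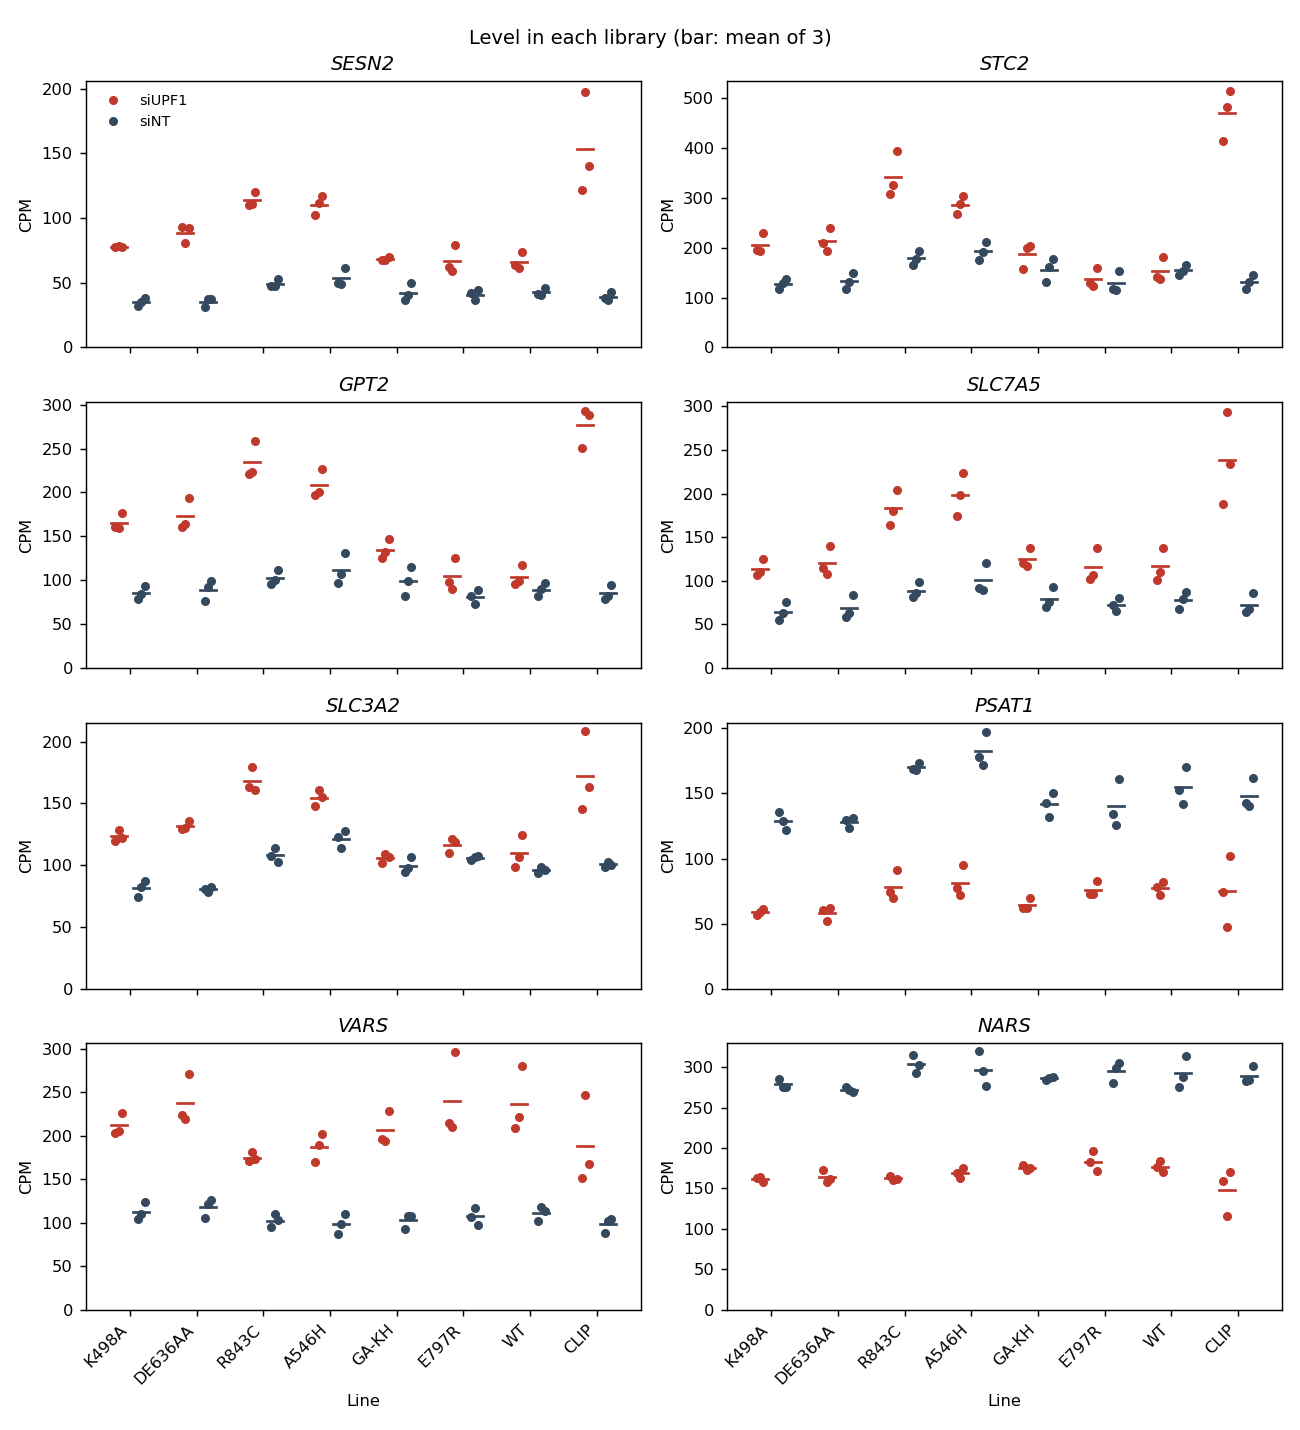
Level of 8 of the genes in each library, in CPM (y axis, from 0), by line (x axis), with siUPF1 libraries in red left of siNT libraries in dark blue and bars at the mean of 3. SESN2, STC2, GPT2 and SLC7A5 have their highest mean siUPF1 level in CLIP, while PSAT1 and NARS are lower and VARS is higher with siUPF1 in every line.

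Among the transporters, both chains of the large neutral amino acid carrier responded. SLC7A5, the transport chain that brings in leucine, had 188, 293 and 234 CPM in CLIP siUPF1 libraries, against 64.4, 67.3 and 86.1 CPM in CLIP siNT libraries, a rise of 1.72 (SE 0.16, adjusted p = 3.92e-11). SLC3A2, the partner chain that carries SLC7A5 and SLC7A11 to the membrane, had 145, 209 and 164 CPM with siUPF1 in CLIP, against 98.6, 103 and 100.4 CPM with siNT, a rise of 0.78 (SE 0.08, adjusted p = 9.27e-10). For both, every siUPF1 library was above every siNT library. The 2 pseudogenes SLC7A5P1 and SLC7A5P2 held 2.11% and 1.22% as many counts as SLC7A5, and reads shared with them are uncertain. SLC6A9, a glycine transporter, had 39.4, 47.5 and 51.2 CPM in CLIP siUPF1 libraries, against 16.5, 17.99 and 21.7 CPM in CLIP siNT libraries, a rise of 1.30 (SE 0.16, adjusted p = 1.52e-08). SLC1A4, a carrier of alanine, serine and cysteine, had 36.3, 34.8 and 42.00 CPM with siUPF1 in CLIP, against 20.3, 23.3 and 22.5 CPM with siNT, a rise of 0.77 (SE 0.09, adjusted p = 2.94e-09). Neither gene's groups overlapped in CLIP.

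The other transporters that rose in CLIP were SLC7A1, a carrier of arginine and lysine, by 0.71, SLC7A11, the cystine and glutamate exchanger, by 0.46, and SLC38A2, a sodium-coupled carrier of small neutral amino acids, by 0.38. For SLC38A2 the second CLIP siUPF1 library went the other way, with 296, 125 and 303 CPM in CLIP siUPF1 libraries, against 182, 185 and 190.0 CPM in CLIP siNT libraries. SLC7A11 had the same pattern, at 70.7, 36.5 and 68.8 CPM with siUPF1 and 39.7, 42.8 and 45.97 CPM with siNT. Without the second library SLC38A2 rose by 0.68 and SLC7A11 by 0.69. SLC38A1, a relative of SLC38A2, was at 0.12 in CLIP and was called there only when that library was left out (0.30, adjusted p = 0.000631). In DE636AA SLC38A1 rose by 0.31. The glutamine carrier SLC1A5 was not called in CLIP (0.18, SE 0.10) and fell in K498A by 0.39, in DE636AA by 0.42, in A546H by 0.34 and in GA-KH by 0.34.

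With wild-type UPF1 in place 1 transporter of the 9 rose, SLC7A5, at 101, 110.3 and 138 CPM in WT siUPF1 libraries, against 67.8, 79.6 and 86.8 CPM in WT siNT libraries (0.58, SE 0.16, adjusted p = 0.00579). In WT 14% of all genes tested rose. SLC3A2 had 98.7, 107 and 124 CPM with siUPF1 in WT and 93.97, 98.1 and 96.1 CPM with siNT, and its change of 0.19 (SE 0.08, adjusted p = 0.088) did not pass. The mean log2 CPM of the 9 transporters was 7.18 ± 0.13 in CLIP siUPF1 libraries and 6.49 ± 0.09 in CLIP siNT libraries (SD, n = 3 each). In WT it was 6.71 ± 0.07 with siUPF1 and 6.59 ± 0.08 with siNT (SD, n = 3 each).

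**Figure D3:**
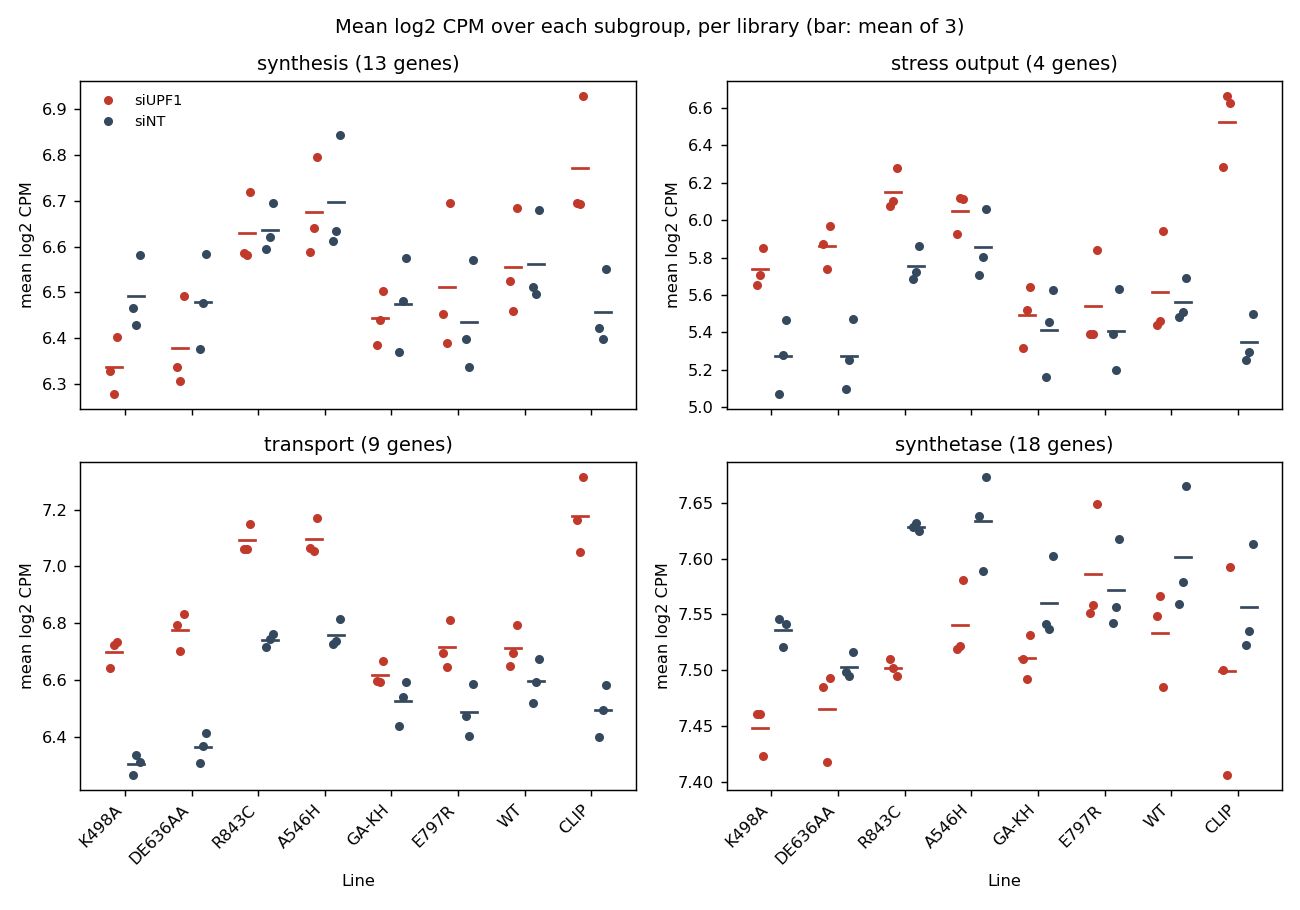
Mean log2 CPM over the genes of each subgroup in every library (y axis, a separate scale in each panel that does not start at 0), by line (x axis), with siUPF1 in red left of siNT in dark blue and bars at the mean of 3. In the transport panel the siUPF1 and siNT libraries of CLIP stand farthest apart, with means of 7.18 and 6.49, while in the synthetase panel all libraries lie between 7.41 and 7.67.

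GPT2 and SHMT2 had the largest rises among the synthesis enzymes in CLIP. GPT2, the mitochondrial alanine transaminase, had 251, 292 and 288 CPM in CLIP siUPF1 libraries, against 79.2, 82.6 and 94.2 CPM in CLIP siNT libraries, a rise of 1.70 (SE 0.13, adjusted p = 6.44e-14). SHMT2, which turns serine into glycine in mitochondria, had 292, 365 and 360.3 CPM with siUPF1 in CLIP, against 136, 142 and 162 CPM with siNT, a rise of 1.21 (SE 0.13, adjusted p = 1.62e-09). Neither overlapped between the siRNAs. MTHFD2 and MTHFD1L, of the folate pathway in mitochondria that follows SHMT2, rose in CLIP by 0.46 and 0.32, and the CLIP groups of MTHFD2 overlapped through the second siUPF1 library. SHMT1, the cytosolic counterpart of SHMT2, was at 0.03 (SE 0.08) in CLIP and fell in K498A by 0.46, in DE636AA by 0.42 and in A546H by 0.21. SHMT2 rose in all 8 lines, by 0.56 (GA-KH) to 1.21 (CLIP).

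PSAT1 was the 1 synthesis gene that fell in CLIP and in WT. PSAT1, the second enzyme of serine synthesis, had 74.4, 47.8 and 102 CPM in CLIP siUPF1 libraries, against 143, 140.1 and 162 CPM in CLIP siNT libraries, and fell by 0.98 (SE 0.14, adjusted p = 2.99e-07) on the log2 scale. In WT it had 78.1, 71.8 and 82.00 CPM with siUPF1, against 152, 142 and 169.9 CPM with siNT, and fell by 1.00 (SE 0.14, adjusted p = 6.39e-07). PSAT1 fell in all 8 lines, by 0.88 (E797R) to 1.16 (A546H), with an SE of 0.14 in each, and no siUPF1 library overlapped the siNT libraries of its line. PHGDH, the first enzyme of the pathway, was called in none of the 8, with changes between -0.30 and -0.08 (lowest adjusted p = 0.0517). PSPH, the last enzyme, was not called in CLIP (0.23, SE 0.10, adjusted p = 0.0639) and fell in K498A, DE636AA and R843C, by 0.41, 0.39 and 0.27.

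ASNS, which makes asparagine and is a much used readout of ATF4 activity, was called in none of the 8 lines. It had 161, 103 and 203 CPM in CLIP siUPF1 libraries, against 148, 150.0 and 177 CPM in CLIP siNT libraries, with the second siUPF1 library lowest and the third highest. The change was -0.03 (SE 0.14, adjusted p = 0.904) in CLIP, 0.19 (adjusted p = 0.2495) without the second library, and ran from -0.29 in WT to 0.06 in DE636AA. The enzymes of proline synthesis moved in both directions between lines. PYCR1, the last step, had 18.7, 16.2 and 20.9 CPM in K498A siUPF1 libraries, against 27.01, 25.5 and 30.4 CPM in K498A siNT libraries, and fell by 0.57 (SE 0.15, adjusted p = 0.00265). In CLIP it had 29.03, 44.2 and 35.5 CPM with siUPF1, against 22.5, 22.7 and 25.6 CPM with siNT, and rose by 0.62 (SE 0.15, adjusted p = 0.00069), or 0.45 without the second siUPF1 library. ALDH18A1, the first step, fell in K498A (-0.56) and DE636AA (-0.58) and rose in E797R (0.35), WT (0.20) and CLIP (0.27). These were the 2 genes of the 44 called higher in some lines and lower in others. Of the enzymes that make cysteine from homocysteine, CBS rose in CLIP by 0.46 (SE 0.13, adjusted p = 0.00303), a call lost without the second library (0.21, adjusted p = 0.164). CTH, the following step, was at 0.23 in CLIP, rose without that library (0.46, adjusted p = 0.000862) and fell in GA-KH by 0.47.

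The synthetases, which attach each amino acid to its tRNA, moved in both directions in every line, as all genes tested did. By line, 3 to 6 of the 18 rose and 3 to 7 fell. Of all genes tested, 14% to 25.1% rose and 13.3% to 22.3% fell. VARS, for valine, had 209, 222 and 279 CPM in WT siUPF1 libraries, against 101, 118 and 114 CPM in WT siNT libraries, a rise of 1.09 (SE 0.14, adjusted p = 6.69e-08). In CLIP it had 151, 247 and 167 CPM with siUPF1, against 88.5, 102 and 104 CPM with siNT, a rise of 0.94 (SE 0.14, adjusted p = 3.9e-07), or 0.68 without the second siUPF1 library. VARS rose in all 8 lines, by 0.77 (R843C) to 1.16 (E797R), and its responses in WT and CLIP differed by 0.16 (SE 0.19), or 0.39 without that library, and neither passed. NARS, for asparagine, had 176, 184 and 170.3 CPM in WT siUPF1 libraries, against 276, 288 and 314 CPM in WT siNT libraries, and fell by 0.73 (SE 0.08, adjusted p = 3.41e-09). In CLIP it had 159.7, 116 and 170.4 CPM with siUPF1, against 283, 284 and 301 CPM with siNT, and fell by 0.96 (SE 0.08, adjusted p = 9.71e-13). NARS fell in all 8 lines, by 0.69 (E797R) to 0.96 (CLIP), and no groups overlapped.

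MARS (methionine) and EPRS (glutamate and proline) were the other synthetases with the largest changes in CLIP. MARS had 228, 269 and 255 CPM in CLIP siUPF1 libraries, against 162, 168 and 176 CPM in CLIP siNT libraries, a rise of 0.57 (SE 0.06, adjusted p = 2.51e-09). EPRS had 304, 236 and 351 CPM with siUPF1 in CLIP, against 441, 449 and 478 CPM with siNT, and fell by 0.62 (SE 0.09, adjusted p = 3.57e-07). The groups did not overlap for either. MARS shares exon sequence with the stress gene DDIT3 on the opposite strand, whose counts were 12% of those of MARS and rose by 0.99 in CLIP. The strand setting of the counting is not given in the sources used here, so reads in the overlap cannot be assigned with certainty. In WT, where DDIT3 was not called (-0.11), MARS rose by 0.25 (SE 0.06, adjusted p = 0.00277). Opposite-strand exons also overlap HARS (HARS2 and WDR55, at 35.7% and 33.1% of its counts) and KARS (TERF2IP, at 122.7%).

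CARS (cysteine), YARS (tyrosine) and SARS (serine) rose in CLIP by 0.57, 0.53 and 0.39 and were not called in WT (-0.05, 0.15 and -0.05). QARS (glutamine) rose in all 8 lines, by 0.20 (R843C) to 0.58 (E797R), and MARS by 0.25 (R843C) to 0.57 (CLIP). IARS (isoleucine) fell in all 8, by 0.32 (E797R) to 0.52 (R843C). LARS (leucine) and TARS (threonine) fell by 0.26 and 0.25 in WT and by 0.43 and 0.41 in CLIP, while DARS (aspartate) and RARS (arginine) fell in CLIP, by 0.53 and 0.47, and were not called in WT. Without the second CLIP siUPF1 library DARS fell by 0.31 and TARS by 0.26 in CLIP. WARS (tryptophan) fell in each of the 7 lines with a UPF1 transgene, by 0.32 (E797R) to 0.57 (K498A), and was not called in CLIP (-0.13, SE 0.09). HARS (histidine) fell in K498A and DE636AA, and GARS (glycine) in R843C, A546H and GA-KH, each by less than 0.28. AARS (alanine) and KARS (lysine) were called in none of the 8 lines, with changes between -0.20 and 0.14. Of these enzymes 8 sit in a multisynthetase complex (EPRS, IARS, LARS, QARS, MARS, KARS, RARS and DARS, grouped here after their values were seen). Of them 2 rose in every line, MARS and QARS, while 5 fell in CLIP and 3 in WT, where 25.1% of all genes tested rose and 22.3% fell in CLIP and 14% rose and 13.3% fell in WT.

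Across the 18 synthetases the response correlated with the GC content of their annotated coding transcripts. Spearman's coefficient between the log2 fold change and the median GC content of a gene's transcripts was 0.51 (GA-KH), 0.64 (A546H), 0.71 (E797R), 0.74 (K498A), 0.74 (R843C), 0.75 (DE636AA), 0.68 (WT) and 0.81 (CLIP) (n = 18 genes, 0.80 in CLIP without the second siUPF1 library). The points share the same libraries and are not independent, so no p is given. Short annotated transcripts counted as much as long ones, and the median length per gene ran from 584 bases (NARS) to 4186 (IARS). The GC value need therefore not be that of the mRNA expressed. The 6 synthetases that rose in CLIP had a median GC content of 53.3% (52.0% to 62.6%), and the 7 that fell 44.6% (42.3% to 48.7%), so their ranges did not overlap. In WT the 3 that rose were at 53.5% to 62.6% and the 6 that fell at 42.3% to 49.5%. Over all 44 genes the coefficient was 0.28 (GA-KH) to 0.58 (CLIP). A GC value was at hand for 73.0% of all genes tested, under the minimum of 80% set for such a check, so the same check over all genes is void. Over the 13972 genes with a value the coefficient was 0.37 in CLIP and between -0.05 and 0.13 in the other 7 lines. Set against the mean of the CLIP siNT libraries, it was 0.05, 0.63 and 0.19 for the 3 CLIP siUPF1 libraries, highest in the second. The part of GC content in these responses was not tested.

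**Figure D4:**
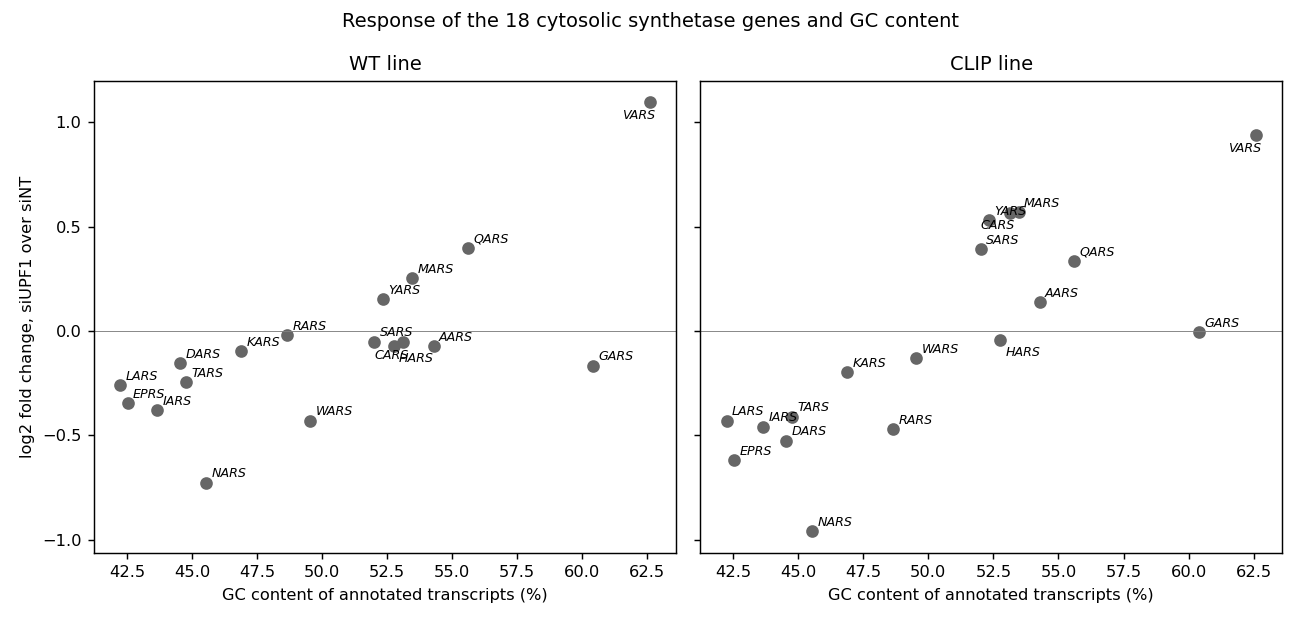
Log2 fold change of siUPF1 over siNT (y axis) against the median GC content of annotated coding transcripts in percent (x axis) for the 18 cytosolic synthetase genes, in WT (left) and CLIP (right). VARS lies at the top right and NARS and the other low-GC genes lie below zero in both panels, with Spearman coefficients of 0.68 and 0.81.

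Holding the response element core did not separate genes that rose from genes that fell. Of the 15 genes with the core in a promoter window, 7 rose, 3 fell and 5 were not called in CLIP, and of the 20 without it 10 rose, 3 fell and 7 were not called. In WT the counts were 2, 3 and 10 with the core and 4, 3 and 13 without it. SLC1A4, SLC3A2, SLC7A1, MARS, CARS and CHAC1, whose windows are printed above, rose in CLIP. NARS and IARS, with cores of the same letters as that of MARS, fell, and ASNS was not called.

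With wild-type UPF1 restored, fewer members responded. In WT 8 of the 44 rose and 7 fell (27.2% of all genes tested were called, 14% higher and 13.3% lower). ALDH18A1, MARS, MTHFD1L, QARS, SESN2, SHMT2, SLC7A5 and VARS rose in both WT and CLIP, and EPRS, IARS, LARS, NARS, PSAT1 and TARS fell in both. WT and CLIP received the same siRNAs, and the cause of these shared responses was not tested. A further 15 genes rose in CLIP and were not called in WT, among them STC2, GPT2, SLC6A9, SLC1A4, SLC3A2 and PYCR1. The difference itself, the WT response minus the CLIP response, was lower for 15 of the 44 genes and higher for 0, where 8.08% and 3.77% of all genes tested were lower and higher (11.9% in either direction). It was -1.86 (SE 0.19, adjusted p = 2.31e-09) for STC2, -1.48 (SE 0.18, adjusted p = 7.16e-08) for GPT2 and -1.32 (SE 0.18, adjusted p = 9.4e-07) for SESN2. The other 12 genes with a lower response in WT were SLC7A5, SLC6A9, SLC1A4, SLC7A11, SHMT2, PYCR1, CARS, SLC7A1, SLC3A2, SARS, YARS and MARS. PSAT1, NARS and VARS had differences of -0.02 (SE 0.20), 0.23 (SE 0.11) and 0.16 (SE 0.19), and none passed the test. Without the second CLIP siUPF1 library these differences were -0.27, 0.07 and 0.39, and none passed. Without the second CLIP siUPF1 library 16 genes were lower and 0 higher, with 4 calls lost and 5 gained, while 10.19% of all genes tested were called in either direction. Leaving out other single libraries gave 10 to 21 called genes.

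**Figure D5:**
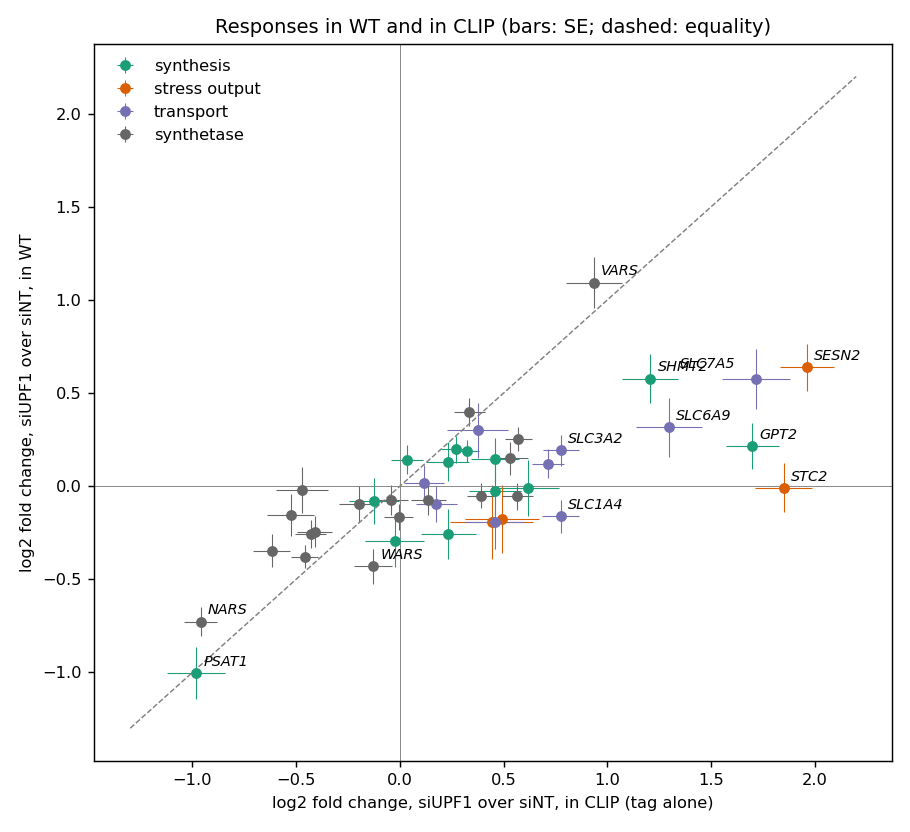
Log2 fold change of siUPF1 over siNT in WT (y axis) against that in CLIP (x axis) for the 44 genes, coloured by subgroup, with bars of 1 SE and a dashed line of equality. STC2, GPT2, SESN2 and SLC7A5 lie far below the line, with changes of -0.01, 0.22, 0.64 and 0.58 in WT and 1.85, 1.70, 1.96 and 1.72 in CLIP, while PSAT1, NARS and VARS lie nearer to it.

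The 6 mutant lines differed in how many of the genes moved. K498A and DE636AA carry changes in the motifs with which the helicase binds and hydrolyses ATP. In K498A 12 of the 44 genes rose and 12 fell (32.7% of all genes tested were called), and in DE636AA 16 rose and 10 fell (34.3%). In R843C 13 rose and 9 fell (32.5%). A fit to its 6 libraries alone gave 17 and 18, and the share of all genes called in that fit is not given here. In A546H 13 rose and 10 fell (32.2%), in GA-KH 8 and 9 (28.3%), and in E797R 12 and 4 (29.5%). SESN2, PSAT1 and VARS were among the 5 largest changes in each of these lines except that R843C had SLC7A5 and STC2 among them and not VARS. GPT2 also belonged to the 5 largest in K498A, DE636AA, R843C and A546H, NARS in GA-KH, E797R and WT, SLC6A9 in K498A and DE636AA, SLC7A5 in A546H and GA-KH as well, and SHMT2 in E797R and WT. K498A siUPF1 libraries had 161, 159.7 and 176 CPM of GPT2, against 78.8, 84.5 and 93.2 CPM in K498A siNT libraries, a rise of 0.95 (SE 0.12, adjusted p = 1.13e-07). R843C siUPF1 libraries had 221, 224 and 259 CPM of GPT2, against 95.97, 100.0 and 112 CPM in R843C siNT libraries, a rise of 1.19 (SE 0.12, adjusted p = 9.26e-10). The groups did not overlap in either line.

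The largest changes in the remaining lines are given here by library. DE636AA siUPF1 libraries had 93.1, 80.7 and 92.3 CPM of SESN2, against 31.5, 37.2 and 37.1 CPM in DE636AA siNT libraries, a rise of 1.33 (SE 0.13, adjusted p = 1.59e-10). A546H siUPF1 libraries had 175, 198 and 223 CPM of SLC7A5, against 91.8, 90.1 and 121 CPM in A546H siNT libraries, a rise of 0.98 (SE 0.16, adjusted p = 7.23e-06). GA-KH siUPF1 libraries had 197, 194 and 228 CPM of VARS, against 93.04, 108 and 108 CPM in GA-KH siNT libraries, a rise of 1.00 (SE 0.14, adjusted p = 3.24e-07). None of these groups overlapped. E797R siUPF1 libraries had 225, 210.5 and 301 CPM of SHMT2, against 137, 136 and 157 CPM in E797R siNT libraries, a rise of 0.78 (SE 0.13, adjusted p = 1.65e-05). GA-KH siUPF1 libraries had 158, 199 and 203 CPM of STC2, against 130.3, 161 and 177 CPM in GA-KH siNT libraries. The E797R groups of SHMT2 did not overlap, the GA-KH groups of STC2 did, and its change of 0.26 (SE 0.13, adjusted p = 0.141) did not pass.

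Set against CLIP, most called differences were of lower responses in the line with a transgene. Lower refers to the signed log2 fold change, so it covers smaller rises as well as falls. PYCR1, for example, fell by 0.57 in K498A and rose by 0.62 in CLIP. The number of genes with a lower response than in CLIP was 16 for K498A (9.57% of all genes tested), 16 for DE636AA (11.6%), 4 for R843C (0.643%), 12 for A546H (4.03%), 18 for GA-KH (9.44%) and 12 for E797R (8.52%). In either direction 13.6%, 17.9%, 0.753%, 5.63%, 14.3% and 13.3% of all genes tested were called in the same order. A higher response was called for 1, 1, 0, 0, 2 and 1 genes in the same order, where 4.02%, 6.32%, 0.11%, 1.6%, 4.85% and 4.75% of all genes tested were higher, and these were EPRS in K498A, DE636AA, GA-KH and E797R and DARS in GA-KH, whose responses were nearer zero than in CLIP. At an unadjusted p under 0.05 in edgeR's test, in either direction, the counts were 22, 24, 21, 27, 26 and 25 for K498A, DE636AA, R843C, A546H, GA-KH and E797R. The share of all genes under that unadjusted p was not counted, here or below. The median differences of the 44 genes were -0.21, -0.20, -0.26, -0.27, -0.24 and -0.13 in the same order. For R843C 4 of the 21 passed the adjustment, and 16 genes were called with the replicate number as a further term. The share of all genes called with that term is not given here. All 7 comparisons share the CLIP libraries. STC2 was lower than in CLIP in every one, and its difference was -0.92 (SE 0.19) in R843C, -1.16 (SE 0.19) in DE636AA, -1.16 (SE 0.19) in K498A, -1.28 (SE 0.19) in A546H, -1.59 (SE 0.19) in GA-KH and -1.76 (SE 0.19) in E797R. In R843C the other genes with a lower response were SESN2 (-0.75, SE 0.18, adjusted p = 0.0252), SLC1A4 (-0.55, SE 0.12, adjusted p = 0.0169) and SARS (-0.39, SE 0.10, adjusted p = 0.0372), and SESN2 was not called there without the second CLIP siUPF1 library (-0.54, adjusted p = 0.116). PYCR1 had the largest difference of all in K498A, at -1.19 (SE 0.21, adjusted p = 0.000129). Without the second CLIP siUPF1 library the counts of lower and higher were 19 and 0 for K498A, 16 and 1 for DE636AA, 6 and 0 for R843C, 11 and 0 for A546H, 19 and 0 for GA-KH and 13 and 0 for E797R, and the remaining higher response was that of EPRS in DE636AA. In that fit 10.63%, 14.02%, 0.942%, 4.223%, 10.15% and 10.93% of all genes tested were called in either direction, in the same order.

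Set against WT, K498A, DE636AA and R843C differed and the other lines did not pass the test. In K498A 5 genes had a higher response than in WT and 3 a lower one, where 1.44% and 1.81% of all genes tested were higher and lower (3.26% in either direction). In DE636AA these counts were 6 and 3 (1.78% and 2.72%, or 4.5%), and in R843C 3 and 0 (1.68% and 0.256%, or 1.94%). All 6 of these comparisons share the WT libraries. GPT2 responded more than in WT in all 3 lines, by 0.74 (SE 0.17, adjusted p = 0.0103) in K498A, 0.74 (SE 0.17, adjusted p = 0.0081) in DE636AA and 0.98 (SE 0.17, adjusted p = 0.000619) in R843C. STC2 did as well, by 0.70 (SE 0.19, adjusted p = 0.0266), 0.70 (SE 0.19, adjusted p = 0.0197) and 0.94 (SE 0.19, adjusted p = 0.00181) in the same order, but its call ended in 7 of 12 fits with a library left out in K498A and in 5 of 12 in DE636AA. SLC3A2 was the remaining gene in R843C, at 0.45 (SE 0.12, adjusted p = 0.0349), a call that ended in 10 of 12 such fits. SLC3A2, SLC1A4 and SLC7A1 were higher in K498A and DE636AA, and SESN2 in DE636AA (0.69).

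The lower responses in the lines with ATP motif changes were of synthesis enzymes. ALDH18A1 had 91.2, 81.8 and 83.4 CPM in K498A siUPF1 libraries, against 129, 116 and 133 CPM in K498A siNT libraries. In WT it had 137, 126 and 131 CPM with siUPF1, against 112, 109.8 and 122 CPM with siNT. It was lower with siUPF1 in K498A and higher with siUPF1 in WT, without overlap, and the difference of responses was -0.76 (SE 0.10, adjusted p = 1.18e-05). In DE636AA the difference was -0.78 (SE 0.10, adjusted p = 7.64e-06). SHMT1 and PSPH were lower than in WT too, with differences of -0.60 and -0.54 in K498A and -0.56 and -0.52 in DE636AA. For A546H, GA-KH and E797R edgeR called 0 of the 44 genes different from WT, where 0.298%, 0% and 0% of all genes tested were called. At an unadjusted p under 0.05 the counts were 7, 0 and 0, and DESeq2 called 1, 0 and 0. With the replicate number as a further term edgeR called 3, 0 and 0, and the shares above are not from that fit.

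Between lines with siNT, where endogenous UPF1 was present, SLC7A11 and SLC3A2 were the members called. SLC7A11 had 25.01, 30.6 and 26.9 CPM in K498A, 28.1, 25.3 and 24.6 CPM in DE636AA and 45.2, 44.3 and 48.6 CPM in WT, all with siNT. All libraries of both mutant lines lay below all WT libraries, and the gene was lower in K498A, at -0.74 (SE 0.14, adjusted p = 0.0331), and in DE636AA, at -0.82 (SE 0.14, adjusted p = 0.00725). SLC3A2 had 123, 114 and 128 CPM in A546H siNT libraries, against 93.97, 98.1 and 96.1 CPM in WT siNT libraries, and was higher in A546H by 0.34 (SE 0.08, adjusted p = 0.038). Leaving out a library ended the call of SLC7A11 in 5 of 6 fits in K498A and 3 of 6 in DE636AA, and that of SLC3A2 in 5 of 6. Each was the 1 member called in its comparison, where 0.0261%, 0.0261% and 0.889% of all genes tested were called in K498A, DE636AA and A546H. In R843C, GA-KH and E797R against WT, and in WT against CLIP, edgeR called 0 members, with 0.0889%, 0.0889%, 0.047% and 0.0314% of all genes tested called. At an unadjusted p under 0.05 the counts were 2, 2, 6 and 4 members, and DESeq2 called 0 in each. With the replicate number as a further term in the fit, 6 members were called in DE636AA (6 lower), 14 in A546H (13 higher and 1 lower) and 2 in E797R (2 lower), so these counts depend on that term. The shares of all genes above are from the fit without that term, so these counts cannot be read beside them.

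ATF4 itself rose in K498A, DE636AA, R843C, A546H and CLIP. It had 1441, 1338 and 1562 CPM in K498A siUPF1 libraries, against 764, 761 and 902 CPM in K498A siNT libraries. In DE636AA it had 1432, 1398 and 1569.6 CPM with siUPF1, against 816, 810.2 and 928 CPM with siNT. It rose by 0.84 (SE 0.08, adjusted p = 2.47e-10) in K498A and 0.78 (SE 0.08, adjusted p = 9.71e-10) in DE636AA, with no overlap in either. In CLIP it had 1294, 1378 and 1388 CPM with siUPF1, against 759, 764 and 809 CPM with siNT, and rose by 0.80 (SE 0.08, adjusted p = 2.03e-10), or 0.78 without the second siUPF1 library. In R843C it had 1434, 1391 and 1455 CPM with siUPF1, against 1089, 1038 and 1079 CPM with siNT, and in A546H 1389.7, 1442 and 1465 CPM, against 1140.1, 1090.3 and 1277 CPM. The rises there were 0.42 (SE 0.08, adjusted p = 9.08e-05) and 0.29 (SE 0.08, adjusted p = 0.00464), from siNT levels above those of the other lines. A546H siNT was 0.42 (SE 0.08, adjusted p = 0.00603) above WT siNT. GA-KH had 975, 981 and 1039 CPM with siUPF1 and 816, 910.3 and 968 CPM with siNT. Those groups lay close together without overlap. E797R had 859, 795 and 978 CPM with siUPF1 and 805, 782 and 878 CPM with siNT. WT had 872, 894 and 1053 CPM with siUPF1 and 840.2, 869 and 905 CPM with siNT. In GA-KH, E797R and WT the changes of 0.15 (SE 0.08), 0.09 (SE 0.08) and 0.11 (SE 0.08) did not pass. The responses of ATF4 in K498A and DE636AA exceeded that in WT by 0.73 (SE 0.11, adjusted p = 9.67e-05) and 0.68 (SE 0.11, adjusted p = 0.0002), and differed from that in CLIP by 0.04 (SE 0.11) and -0.02 (SE 0.11), which did not pass. The responses of ATF4 in R843C and A546H differed from that in WT by 0.31 (SE 0.11, adjusted p = 0.23) and 0.18 (SE 0.11, adjusted p = 0.742), which did not pass either. For SESN2, STC2, GPT2 and SLC7A5 the responses in K498A and DE636AA were lower than in CLIP, but that of SESN2 in DE636AA was not called different without the second CLIP siUPF1 library (-0.40, adjusted p = 0.0978).

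Other genes of the same tasks, outside the 44, were counted on further lists, to be read beside the 25.1% of all genes tested that rose and the 22.3% that fell in CLIP, and the 14% and 13.3% in WT. Of 13 regulators, ATF4 included, 10 rose and 1 fell in CLIP and 2 rose and 0 fell in WT. Without the second CLIP siUPF1 library these counts were again 10 and 1. NUPR1, a stress-induced chromatin protein, rose in CLIP by 1.63, PPP1R15A, which restores eIF2 activity, by 1.56, and CEBPB, a partner of ATF4, by 1.23. In WT the first 2 of these were at -0.29 and 0.04 and did not pass, and CEBPB rose by 0.72. NUPR1 rose in CLIP by 1.67, PPP1R15A by 1.27 and CEBPB by 0.97 when the second CLIP siUPF1 library was left out. Of 17 mitochondrial synthetases 9 rose and 3 fell in CLIP and 5 rose and 2 fell in WT, and 7 rose and 3 fell in CLIP without the second siUPF1 library. EARS2 (glutamate) and SARS2 (serine) rose in CLIP by 1.09 and 0.95, and IARS2 (isoleucine) fell by 0.94. With that library left out, EARS2 and SARS2 rose by 0.94 and 0.68 and IARS2 fell by 0.80. These genes too went both ways, like the cytosolic synthetases. Of 6 cytosolic charging partners 2 rose and 2 fell in CLIP and 2 rose and 0 fell in WT. FARSA and FARSB, the 2 chains of the phenylalanine enzyme, moved apart in CLIP, by 0.49 and -0.55, and the complex scaffold AIMP1 fell by 0.39. Without the second siUPF1 library 0 partners rose and 2 fell, with FARSA at 0.23 (adjusted p = 0.063), FARSB at -0.29 and AIMP1 at -0.24.

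Of 14 further transporters tested, 6 rose and 3 fell in CLIP, with or without the second siUPF1 library, and 6 rose and 2 fell in WT. SLC38A7, a lysosomal glutamine carrier, rose in CLIP by 1.63 (SE 0.13) and in WT by 1.08 (SE 0.13). SLC43A2, a carrier of large neutral amino acids, rose by 1.60 (SE 0.14) and 0.98 (SE 0.14) in the same order. SLC1A1, a glutamate carrier, fell by 1.43 in CLIP and by 0.23 in WT. With the second CLIP siUPF1 library left out, SLC38A7 rose by 1.51 and SLC43A2 by 1.28 in CLIP, and SLC1A1 fell by 1.34. Of 24 further enzymes of amino acid and folate metabolism 8 rose and 9 fell in CLIP and 5 rose and 5 fell in WT, and without the second CLIP siUPF1 library 6 rose and 6 fell in CLIP. ASL, of the urea cycle and arginine synthesis, rose by 1.64 (SE 0.17) in CLIP and 1.34 (SE 0.17) in WT, ALDH4A1, of proline breakdown, by 0.91 (SE 0.11) and 0.93 (SE 0.11), and BCAT2, which transaminates branched-chain amino acids in mitochondria, by 0.76 (SE 0.11) and 0.50 (SE 0.11). The rises in CLIP were 1.41 for ASL, 0.74 for ALDH4A1 and 0.54 for BCAT2 when the second CLIP siUPF1 library was left out.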

How the data were processed

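Per the submitters' processing notes, the authors trimmed reads with cutadapt, aligned them with STAR to hg19 and counted genes with RSEM, with DESeq2 also listed; versions and the strand setting are not given in the sources used here. Total RNA was depleted of ribosomal RNA. The deposited values are expected counts per gene in 48 libraries (21333958 to 47100154 per library), rounded here to whole numbers. With edgeR 4.0.16 (R 4.3.3), genes were filtered by filterByExpr, scaled by TMM and fitted with 16 group terms in a quasi-likelihood model. The 28 contrasts were 8 responses to siUPF1, 13 differences of responses and 7 siNT comparisons, each two-sided and Benjamini-Hochberg adjusted over all 19129 genes tested, with a threshold of 0.05. The fit was tested on simulated data. No replicate pair of the 48 was a duplicate (chi-square per degree of freedom 3.9 to 139).

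Alternatives were median-of-ratios size factors, no filter, DESeq2 1.42.0, a replicate block, a line's libraries alone, and each library left out. The fit of the other gene lists without the second CLIP siUPF1 library was chosen after seeing the data. Subgroup levels are means of log2 CPM with a prior count of 2. GC content came from GENCODE transcripts, and promoters from RefSeq GRCh38.p14, used by gene name only because the counts are on hg19. The 44 genes and the other lists were chosen with earlier results of these data known. Genes were named by size among the called: 4 per subgroup in CLIP, 5 in other responses, 3 per difference, siNT comparison or further list.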

Additional observations from a re-analysis of the deposited data

Results flagged for a closer look

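The results in this section are differences between lines in the response to siUPF1 that passed the test of the difference itself, the 3 largest per comparison (edgeR's quasi-likelihood test, adjusted p under 0.05, 3 libraries per line and siRNA). All values are log2 differences of responses, with the CLIP or WT response subtracted.

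Against CLIP, the response of STC2 was lower in every line with a UPF1 transgene, with -1.16 (K498A), -1.16 (DE636AA), -0.92 (R843C), -1.28 (A546H), -1.59 (GA-KH), -1.76 (E797R) and -1.86 (WT). The response of SESN2 was lower, at -0.75 in R843C, -0.92 in A546H, -1.28 in GA-KH, -1.25 in E797R and -1.32 in WT. That of GPT2 was lower, at -1.25 in GA-KH, -1.34 in E797R and -1.48 in WT. PYCR1 differed by -1.19 in K498A and -0.97 in DE636AA, and SLC7A5 by -0.90 and -0.90 in the same order. SLC1A4 differed by -0.55 in R843C and CHAC1 by -0.93 in A546H. These comparisons share the CLIP libraries.

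Against WT, ALDH18A1 had a lower response, at -0.76 in K498A and -0.78 in DE636AA. GPT2 had a response higher by 0.74 in K498A, 0.74 in DE636AA and 0.98 in R843C. STC2 was higher by 0.70, 0.70 and 0.94 in the same lines, and SLC3A2 by 0.45 in R843C. These comparisons share the WT libraries.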

How the results depend on the processing

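Of 1071 values of named genes under alternatives, 1010 kept their direction and their side of the threshold, 57 lost the call (52 with a library left out), 4 gained one (DDIT4 in CLIP) and 0 reversed. Called genes in the responses moved by over 1.5 times only in the line's 6 libraries alone, to 35 in R843C and 19 in CLIP. The cause was not tested, and the shares of all genes called in those fits are not given here. R843C minus CLIP gave 8 without a filter on low counts and 7 with DESeq2. A546H minus WT gave 2 without a filter and 1 with DESeq2, and A546H siNT against WT siNT gave 0 without a filter and 2 with DESeq2. Median-of-ratios size factors moved no count by over 1.5 times.

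Same-numbered siUPF1 and siNT libraries were not treated as pairs: 15 of 24 correlated by over 0.1 (median 0.123, -0.00731 to 0.283). As a hint from the data, 21 of 24 siUPF1 libraries and 20 of 24 siNT libraries correlated best with the other siRNA's library of their own number in their line. With the replicate number as a block the counts were 16 in R843C minus CLIP, 21 in A546H minus CLIP, 22 in E797R minus CLIP, 7 in R843C minus WT, 3 in A546H minus WT, and 6, 14 and 2 for DE636AA, A546H and E797R siNT against WT siNT, against 4, 12, 13, 3, 0, 1, 1 and 0 without it. It moved no other count by over 1.5 times. The shares of all genes given above are from fits without the block.

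With each library left out in turn, responses called 22 to 24 genes in K498A, 22 to 24 in DE636AA, 17 to 19 in R843C, 17 to 22 in A546H, 14 to 16 in GA-KH, 14 to 16 in E797R, 13 to 14 in WT and 29 to 32 in CLIP. Minus CLIP the ranges were 15 to 21 in K498A, 13 to 20 in DE636AA, 1 to 11 in R843C, 5 to 21 in A546H, 13 to 25 in GA-KH, 9 to 19 in E797R and 10 to 21 in WT. R843C gave 1 without CLIP siNT 1, R843C siUPF1 1 or R843C siUPF1 2, 2 without CLIP siNT 2, R843C siNT 2 or R843C siNT 3, and 11 without CLIP siUPF1 1. A546H gave 5 without A546H siNT 3, 6 without A546H siUPF1 1, 7 without CLIP siNT 2 and 21 without CLIP siUPF1 1, and GA-KH gave 13 without GA-KH siNT 3. Minus WT the ranges were 4 to 6 in K498A, 5 to 8 in DE636AA, 2 to 3 in R843C and 0 to 1 in A546H. K498A gave 4 without WT siNT 2 and 5 without K498A siNT 1, any K498A siUPF1 library, WT siNT 3, WT siUPF1 1 or WT siUPF1 2, DE636AA gave 5 without DE636AA siNT 1, and A546H gave 1 without A546H siNT 3. Against WT siNT the ranges were 0 to 1 in K498A (0 without K498A siNT 1 or 3 or any WT siNT library), 0 to 1 in DE636AA (0 without DE636AA siNT 2 or 3 or WT siNT 3) and 0 to 2 in A546H (2 without A546H siNT 2, 0 in the other fits). The SE of a difference of responses rests on 3 libraries in each of 4 groups.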
